A study of Mus musculus with 24 samples.

Results

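The response of wild-type mouse embryonic fibroblasts to tunicamycin was taken from 8 of the 24 one-colour Agilent arrays of the study, namely all 4 wild-type untreated arrays and all 4 wild-type arrays given tunicamycin. Tunicamycin was used at 2 µg/mL and labelled 12 h, while the shared treatment protocol names 12 or 24 h. Untreated cells carry no vehicle in their labels. The names of the deposited files place 2 untreated and 2 treated arrays in a wild-type line called ATF4WT (replicates 1 and 2) and 2 and 2 in a line called PERKWT (replicates 3 and 4), while the labels give only the genotype. For setting the same genes beside other cells, the study also holds 2 untreated and 2 treated arrays each of PERKKO, ATF4KO and eIF2a A/A fibroblasts, given tunicamycin for 12 h, and of Fv2E-PERK fibroblasts, given AP for 12 h. PERKKO and ATF4KO cells lack the kinase PERK and the transcription factor ATF4. The eIF2a A/A cells carry alanine at the phosphorylated serine of both eIF2α copies, and Fv2E-PERK is a PERK kinase fusion that a dimerizing compound switches on. All cells were cultured in medium with serum and 2-mercaptoethanol. The labels do not say that replicates were separate cultures, so the p-values rest on the spread among these arrays alone, and that spread may be technical.

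Tunicamycin blocks DPAGT1, the enzyme that starts the lipid-linked sugar chain used for N-glycosylation in the endoplasmic reticulum (ER). Unglycosylated proteins misfold there, and the sensors IRE1, ATF6 and PERK answer with the unfolded protein response. XBP1 and ATF6 then raise genes for folding, export and degradation, while PERK phosphorylates eIF2α, which lowers general translation and favours translation of ATF4, a regulator of amino acid supply. The genes for which this response is best known, a list of 113 tested genes, serve below only to check the labels, and the text is about other genes that moved in the same direction in both lines.

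Levels are log2 of the processed signal minus the log2 of the 75th percentile of that array, so a level of 0 equals the array's upper quartile. That percentile was 208 to 361 intensity units over the 8 arrays, and the share of probes called well above background was 45.1% to 58.1%. No spot was saturated. Of 20138 named genes, 12797 had a probe well above background on all 4 arrays of either group and were tested. All 4 PERKWT arrays lay on 1 slide and were scanned together. The untreated and treated ATF4WT arrays lay on different slides and were scanned separately, so slide and treatment cannot be told apart in that line. The lines also differed in spread, with a median standard deviation per gene of 0.22 (untreated) and 0.21 (treated) in ATF4WT against 0.08 and 0.06 in PERKWT. Xist was well above background on all 4 ATF4WT arrays and on 0 PERKWT arrays, and Ddx3y and Eif2s3y the other way round, genes chosen after their values were seen. Of 13 fibroblast markers, 12 were well above background on all 8 arrays and Lum on 2. The summed signal of the markers was at a level of 9.69 to 10.3 on untreated and 8.99 to 9.41 on treated arrays. Of the 12 tested, 6 fell with the line as a block, and 2 of these fell in both lines, namely Col3a1 (-2.43 on the log2 scale) and Dcn (-2.91). Col1a2 (-0.52), Pdgfra (-0.46), Pdgfrb (-0.59), Vim (-0.11) and Twist1 (-0.30) were not called. Some markers of other cell types were also well above background on all 8 arrays: Kdr and Pecam1 of 5 endothelial, Itgam and Csf1r of 5 blood cell, Krt18 and Krt14 of 6 epithelial, Fabp4, Pparg and Lpl of 5 adipocyte, Tubb3 and Map2 of 6 neural and Myl4 of 6 muscle markers. Not above background on any array were Cdh5, Tek and Emcn (endothelial), Lyz2 (blood), Cdh1 and Krt8 (epithelial), Adipoq (adipocyte), Olig2 and Rbfox3 (neural) and Myod1, Myog, Myh3 and Actc1 (muscle). Summed, the adipocyte markers were at 2.04 to 3.51 untreated and 0.98 to 1.63 treated, and the epithelial ones at -0.22 to 0.47 and -0.75 to -0.64. The ranges of the other sums overlapped: endothelial 2.36 to 4.07 and 3.39 to 4.09, blood 4.03 to 4.64 and 3.53 to 6.07, neural 0.48 to 2.32 and 2.07 to 2.50, muscle 0.13 to 0.48 and 0.15 to 0.73. The part of cell state or of other cell types in the results below was not tested.

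The label checks moved as the labels say in both lines. Ddit3, the gene of CHOP, a transcription factor that promotes apoptosis, was at 1.43, 1.86, 1.63 and 1.62 on untreated arrays (ATF4WT replicates 1 and 2, then PERKWT replicates 3 and 4, the order used throughout) and at 6.29, 6.47, 6.24 and 6.23 on treated arrays. Its difference was 4.67 ± 0.13 (SE, log2, 4 against 4 arrays, limma adjusted p = 5.69e-06). The groups did not overlap, and the lines gave 4.74 and 4.61. Dpagt1 itself, the target of the drug, rose from 3.66, 3.78, 3.67 and 3.77 to 4.73, 4.66, 4.55 and 4.60, a difference of 0.91 ± 0.10 (limma adjusted p = 0.000728). Hspa5 (2.18), Herpud1 (4.03), Atf4 (1.47), Xbp1 (1.81), Trib3 (3.56) and Asns (2.13) were higher too by the log2 differences given. Atf3 and Chac1 were higher in both lines but to unequal extents, Atf3 by 2.49 in ATF4WT and 4.40 in PERKWT, Chac1 by 4.76 and 2.92.

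With the line as a block, limma called 4083 of 12797 tested genes at an adjusted p under 0.05 (31.9% of those tested), 2364 higher (18.5%) and 1719 lower (13.4%). The excess of higher genes depended on the normalization, as quantile normalization gave 1987 higher and 2043 lower. The number of genes called in each line depended on the fit. In a fit with a mean for each line and treatment and a spread common to both lines, 4374 genes were called in ATF4WT and 2280 in PERKWT. With each line fitted alone, on its own spread, the order was reversed, with 1489 genes in ATF4WT and 6879 in PERKWT. These counts therefore do not show which line responded more. Genes called in each line in the same direction numbered 1613, of which 961 were higher (7.51% of those tested) and 652 lower (5.09%). At least 2-fold changes in both lines were shown by 432 of the higher and 391 of the lower genes. On all 8 arrays, the untreated and treated values of 1346 of the 1613 genes did not overlap, against 3102 of all tested genes. These counts rest on the tight PERKWT arrays: without PERKWT untreated replicate 3 or 4 or treated replicate 3 or 4, the shared higher genes numbered 295, 339, 303 and 285 and the shared lower genes 161, 169, 189 and 182. With each line fitted alone the counts were 563 higher and 627 lower, which turned the balance between both directions. Across the tested genes, 70.7% had the same sign in both lines.

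**Figure D1:**
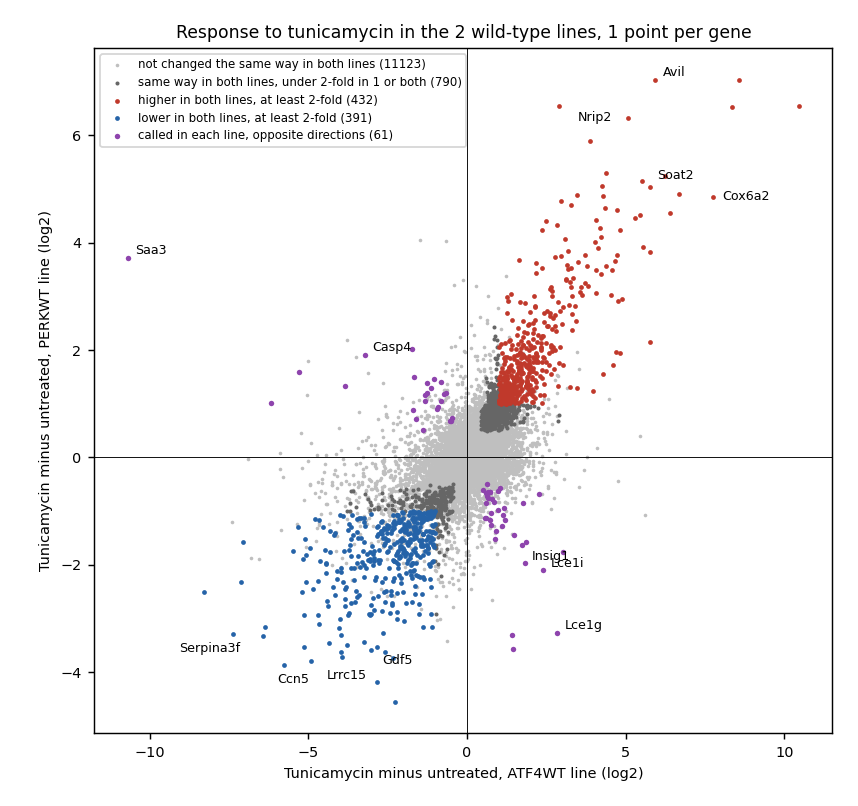
Each point is 1 of the 12797 tested genes, placed by its log2 difference between tunicamycin and untreated arrays in the ATF4WT line (horizontal axis) and in the PERKWT line (vertical axis), with 2 against 2 arrays in each. Genes at least 2-fold higher (432) or lower (391) and called in both lines lie along the diagonal, while 61 genes, among them Saa3, were called in opposite directions, and several unlabelled points at the upper right belong to the best-known genes.

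The strongest risers outside the best-known list encode proteins of different kinds. They are the 15 with the largest fitted difference in the line where it was smaller. In all 15 the untreated and treated arrays did not overlap, against 3102 of the 12797 tested genes, but a choice by large differences favours this. For 7 of them no untreated array was above background, so their rank and p-value are set against background and their size is given as a bound. The 3 measured on all 8 arrays rose by 4.50 to 4.88 on the log2 scale (limma adjusted p from 1.40e-05 to 9.95e-05). The 5 with some untreated arrays above background had differences of 4.98 to 6.30. Avil encodes advillin, an actin-binding protein of the villin family. Its level was -5.46, -3.91, -5.23 and -5.07 on untreated and 1.82, 0.67, 1.89 and 1.89 on treated arrays, so 3 treated arrays stood close together and ATF4WT replicate 2 below them. No untreated array was well above background, so the rise is given as at least 73.2-fold (limma adjusted p = 8.19e-05), the treated mean set against a floor on each untreated array, which is either the lowest signal that any probe called above background had there or, where it is higher, the signal of the gene itself. Nrip2, a nuclear receptor interacting protein, was likewise not well above background without the drug and rose at least 13.2-fold. The same bound was at least 19.6-fold for Cyp2c23, a cytochrome P450 of the ER, 11.1-fold for Sh3tc2, an endosomal adaptor best known from Schwann cells, and 10.2-fold for Extl1, an exostosin-like glycosyltransferase. It was at least 6.59-fold for Ppef1, a phosphatase with calcium-binding EF hands, and 4.29-fold for Ostn, the secreted peptide osteocrin. All 7 were above background on all 4 treated arrays, which the filter required. A gene above background on no untreated array could be tested only in that case.

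Chchd10, a protein of the mitochondrial intermembrane space, was measured on all 8 arrays. It stood at 0.77, 1.08, -0.11 and -0.01 without and at 6.65, 5.81, 4.34 and 4.48 with tunicamycin. The difference was 4.88 ± 0.24 (limma adjusted p = 3.93e-05), and the ATF4WT arrays were the higher ones in both groups. Cdsn, which encodes corneodesmosin of the cornified skin layer, went from -1.01, -0.93, 0.13 and -0.03 to 3.03, 3.72, 4.71 and 4.70. Its difference of 4.50 ± 0.17 had an adjusted p of 1.40e-05 by limma, and here PERKWT arrays were the higher ones. Angptl6, a secreted angiopoietin-like protein, rose from 0.05, -0.26, 1.28 and 1.20 to 5.55, 5.33, 5.20 and 5.13. The treated arrays of both lines reached nearly one level from unequal starts, and the responses of 5.55 in ATF4WT and 3.92 in PERKWT differed (limma adjusted p = 0.016 for the difference). Soat2, which esterifies cholesterol in the ER, was at -2.77, -3.67, -3.04 and -3.39 untreated, above background on 3 of these arrays, and at 3.0, 2.10, 1.76 and 1.90 treated, a difference of 5.41 ± 0.29 (limma adjusted p = 4.94e-05). Cox6a2, the subunit of cytochrome c oxidase typical of heart and skeletal muscle, was at -2.77, -4.24, -0.62 and -1.07 untreated and at 4.38, 4.10, 4.03 and 3.99 treated. Again the treated arrays lay within a narrow band and the untreated ones did not. B4galnt2, which adds N-acetylgalactosamine to glycans, rose by 4.91 on the log2 scale in PERKWT and at least 49.3-fold in ATF4WT, where no untreated array was above background. The fit called a difference between lines (limma adjusted p = 0.0338) that rests on those background values. Bhlha15, also called MIST1, is a transcription factor of secretory cells and was above background on 1 untreated and 4 treated arrays. Its treated level was 0.55 and 0.85 in ATF4WT and -1.78 and -1.87 in PERKWT, and the increase was 5.50 in ATF4WT. In PERKWT, with no untreated array above background, it was at least 9.46-fold. Hmx3, a homeobox factor of the developing ear and brain, was above background on 1 untreated array and reached -1.34, -0.76, -1.62 and -1.42 with the drug.

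**Figure D2:**
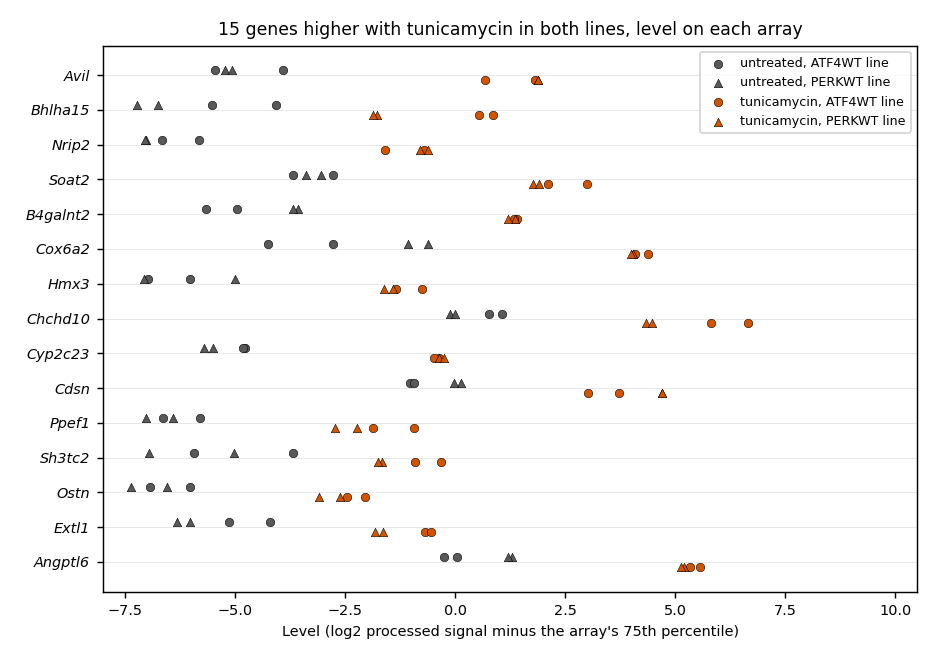
The level of each of the 15 strongest risers outside the best-known list is plotted on every array, on the log2 scale relative to the array's 75th percentile, with grey symbols for untreated and orange for tunicamycin arrays, circles for the ATF4WT and triangles for the PERKWT line. In every gene all 4 orange symbols lie to the right of all 4 grey ones, and Avil, Nrip2, Cyp2c23, Ppef1, Sh3tc2, Ostn and Extl1 were not well above background on any untreated array.

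Promoters of genes at least 2-fold higher in both lines were searched for binding sequences of the factors of this response. RefSeq promoters (build GRCm38.p6, 250 bases before the start to 50 after it) were at hand for 343 of the 432 risers, 283 of the 391 fallers and 10215 of the tested genes. Both strands were searched for the ER stress element ERSE (CCAAT, 9 bases, CCACG), bound by ATF6 with NF-Y, for ERSE-II (ATTGG, 1 base, CCACG), for the UPR element (TGACGTGG) bound by XBP1 and ATF6, and for the C/EBP-ATF composite site (TGATGNAA) bound by ATF4 and CHOP. The first 3 can overlap, as they share bases of CCACG. The ER stress element was found in 12 risers (3.50%), 0 fallers and 16 of all tested genes (0.157%), against 0.119% of all 32851 promoters. Without the best-known genes it was left in 2 of 280 risers. The composite site was found in 29 risers (8.46%), 6 fallers (2.12%) and 283 tested genes (2.77%), against 3.97% of all promoters, and in 16 of 280 risers (5.71%) without the best-known genes. The UPR element differed less, with 5 risers (1.46%), 1 faller and 1.04% of tested genes. ERSE-II was in 5 risers, 0 fallers and 9 tested genes. Shown here are the bases before the start, on the gene's own strand, of Hspa5 as the textbook case of the ER stress element, of Alg12 and Nucb1 as risers outside the best-known list with an element of this kind, and of the strong risers Chchd10 and Avil with composite sites, with each match in capitals.
Hspa5, chr2:34771840-34772089, strand +: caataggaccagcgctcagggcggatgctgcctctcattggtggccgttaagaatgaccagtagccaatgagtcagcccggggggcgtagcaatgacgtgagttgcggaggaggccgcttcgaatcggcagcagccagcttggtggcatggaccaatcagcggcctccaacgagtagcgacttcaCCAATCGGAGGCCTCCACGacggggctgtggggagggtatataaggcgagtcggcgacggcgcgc
Alg12, chr15:88819319-88819568, strand -: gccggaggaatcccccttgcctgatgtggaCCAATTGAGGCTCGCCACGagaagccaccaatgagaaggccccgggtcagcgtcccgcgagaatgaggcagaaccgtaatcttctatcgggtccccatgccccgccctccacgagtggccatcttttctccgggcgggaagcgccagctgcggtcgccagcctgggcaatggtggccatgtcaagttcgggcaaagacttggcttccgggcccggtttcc
Nucb1, chr7:45510409-45510658, strand -: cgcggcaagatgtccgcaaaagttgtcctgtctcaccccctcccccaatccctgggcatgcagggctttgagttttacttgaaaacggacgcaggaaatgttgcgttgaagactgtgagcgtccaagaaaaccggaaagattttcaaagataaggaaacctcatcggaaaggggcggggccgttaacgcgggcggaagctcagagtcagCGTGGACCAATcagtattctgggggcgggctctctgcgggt
Chchd10, chr10:75932880-75933129, strand +: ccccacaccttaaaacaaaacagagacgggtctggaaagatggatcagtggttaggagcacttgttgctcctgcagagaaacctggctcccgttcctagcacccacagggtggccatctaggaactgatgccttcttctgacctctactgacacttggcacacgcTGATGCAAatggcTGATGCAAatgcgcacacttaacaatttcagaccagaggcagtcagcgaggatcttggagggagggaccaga
Avil, chr10:127000459-127000708, strand +: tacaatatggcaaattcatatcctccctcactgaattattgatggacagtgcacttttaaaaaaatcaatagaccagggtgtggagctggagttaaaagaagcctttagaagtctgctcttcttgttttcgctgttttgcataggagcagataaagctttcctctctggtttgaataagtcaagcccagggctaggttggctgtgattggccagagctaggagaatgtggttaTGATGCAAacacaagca
Capitals in Hspa5 mark an ER stress element 65 to 47 bases before the start, and those in Alg12 one 220 to 202 bases before it. In Nucb1 they mark an ERSE-II on the other strand, 41 to 31 bases before the start. Chchd10 holds 2 copies of the composite site, 85 to 78 and 72 to 65 bases before the start, and Avil 1 copy 17 to 10 bases before it. Alg12 starts 327 bases from Creld2, which is read the other way and is among the best-known genes. Creld2 rose by 3.41 ± 0.12 (limma adjusted p = 1.23e-05), and was named after its values were seen. The promoters shown were picked because they hold a match, so they do not show how common a match is among the strong risers. Zfp57, also a riser outside the best-known list, holds an ER stress element too and is not printed. A match is a description of letters in these windows and shows no binding.

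The machinery of N-glycosylation, the step that tunicamycin stops, rose at several stages. Among 28 genes of the lipid-linked oligosaccharide precursor, 14 (50%) were higher and 1 (3.57%) lower with the line as a block, against 18.5% and 13.4% of all tested genes. Of these, 6 (21.4%) were higher in both lines, against 7.51%. The median difference was 0.46, against 0.08 over all tested genes. Alg12, a mannosyltransferase that works on the lumenal side of the ER, went from -1.02, -1.66, -1.37 and -1.27 to 0.60, 0.12, 0.93 and 0.79, an increase of 1.94 ± 0.19 (limma adjusted p = 0.000521). The groups did not overlap. Alg2 and Alg5, which add mannose and load glucose on the cytosolic side, rose by 1.35 ± 0.10 and 1.30 ± 0.11, and Alg3 by 0.96 ± 0.15. Of 12 subunits of the oligosaccharyltransferase, which moves the finished chain onto proteins, 9 (75%) rose and none fell with the line as a block, and 8 (66.7%) rose in both lines, with a median of 1.11. Magt1, an oxidoreductase subunit of the complex, stood at 2.96, 2.95, 1.78 and 2.00 untreated and at 5.01, 5.06, 3.61 and 3.53 treated, 1.88 ± 0.13 higher (limma adjusted p = 9.90e-05). ATF4WT arrays were above PERKWT arrays in both groups, yet the increases were close, 2.08 and 1.67. Ostc rose by 1.44, Rpn1 by 1.18 and the catalytic subunit Stt3b by 1.15.

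Supply of sugar donors moved with it. Of 11 genes of nucleotide sugar synthesis 5 (45.5%) rose and none fell, 3 of them in both lines, with a median of 0.42, or 0.24 without untreated ATF4WT replicate 2. Gnpnat1, which acetylates glucosamine phosphate on the way to UDP-GlcNAc, was at 1.63, 1.64, 1.88 and 2.04 untreated and at 3.76, 3.40, 4.36 and 4.54 treated, 2.22 ± 0.16 higher (limma adjusted p = 0.000114). Gfpt1, the entry enzyme of the hexosamine pathway, rose by 0.71 ± 0.11 and Nans, a sialic acid synthase, by 0.97 ± 0.12. Gne, the first enzyme of sialic acid synthesis, rose by 0.69 ± 0.15 with the line as a block, without passing in each line. Golgi glycan enzymes showed no common direction: of 22 tested, 5 (22.7%) rose and 3 (13.6%) fell, shares near the 18.5% and 13.4% of all genes, the median was 0.00, and its sign turned with quantile normalization (-0.08) and normexp background correction (-0.04), and the median ran from -0.06 (without treated ATF4WT replicate 1) to 0.08 (without treated ATF4WT replicate 2) with single arrays left out. Within that list Slc35b1, a nucleotide transporter of the ER membrane, rose by 2.26 ± 0.11 (limma adjusted p = 3.42e-05) and Mgat2 by 0.71, while B4galt5 fell by 1.44 and St3gal1 by 0.99.

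Glycosaminoglycan genes split as well. Of 25 tested, 3 (12%) rose and 7 (28%) fell, against 18.5% and 13.4% of all tested genes, with a median of -0.16. In both lines 1 (4%) rose and 3 (12%) fell, against 7.51% and 5.09%. Csgalnact1, which starts chondroitin chains, fell by 1.45, Ext2, a heparan sulfate polymerase, by 0.98 and Xylt2, which attaches the first sugar, by 0.84, while Glce, an epimerase of heparan sulfate, rose by 1.25. Among 22 genes for GPI anchors, 7 (31.8%) rose and 1 (4.55%) fell. In both lines 2 rose (9.09%), a share near the 7.51% of all tested genes. They were Piga (1.84 ± 0.12), part of the enzyme that makes the first intermediate, and Pigw (0.97 ± 0.12).

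Entry of proteins into the ER showed a partial rise. In the list of signal recognition particle, its receptor and signal peptidase, 9 of 14 genes (64.3%) rose and none fell, 8 rose in both lines, and the median was 0.78. On its brightest probe Spcs2, a signal peptidase subunit, moved from 3.84, 3.70, 3.68 and 3.67 to 6.02, 5.92, 5.48 and 5.44, a difference of 1.99 ± 0.12 (limma adjusted p = 7.24e-05). The untreated arrays lay within a narrow band and the treated arrays above them all. The other probe of Spcs2 rose by only 0.46. The catalytic subunits Sec11a and Sec11c rose by 1.34 and 1.80, and Srprb, which anchors the receptor, by 1.58. Of 9 genes of the ER membrane protein complex, which inserts membrane segments, 4 (44.4%) rose and 1 (11.1%) fell, against 18.5% and 13.4% of all. In both lines 2 (22.2%, against 7.51%) rose, Emc4 by 0.70 and Emc7 by 0.69. Emc9 fell in both lines, by 1.05 (11.1%, against 5.09%). The median was 0.10, with 0.32 in ATF4WT and 0.23 in PERKWT. The block median was -0.01 with quantile normalization. With single arrays left out it lay between 0.06 (treated ATF4WT replicate 1) and 0.22 (untreated ATF4WT replicate 1). Reep6, a protein that shapes ER membrane, was at 1.82, 1.49, 1.82 and 1.80 untreated and at 4.22, 4.20, 4.27 and 4.23 treated, and so rose by nearly the same amount in both lines (2.50 ± 0.11, limma adjusted p = 2.88e-05). Lnpk, found at junctions of ER tubules, rose by 1.01 and the reticulophagy receptor Retreg1 by 1.89 in ATF4WT and 0.81 in PERKWT. In all, 6 of 22 genes of ER shape (27.3%) rose and 2 (9.09%) fell, against 18.5% and 13.4% of all tested genes. Of 31 genes of Golgi structure and traffic 7 (22.6%) rose, a share near that of all tested genes, and 2 (6.45%) fell, with a median of 0.04 that ran from 0.04 (without untreated PERKWT replicate 4) to 0.11 (without untreated PERKWT replicate 3) with single arrays left out. Among them were the tether Uso1 (1.05 higher) and the GTPase Rab1b (0.68 lower).

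Calcium stores and membrane lipids followed, read against the 18.5% of all tested genes that rose and 13.4% that fell. Of 23 ER calcium genes 7 (30.4%) rose and 2 (8.70%) fell, 4 rose in both lines, and the median was 0.34. Atp2a3, a calcium pump of the ER, was at -3.31, -4.86, -3.78 and -3.48 untreated, above background on 3 of the 4 arrays, and at -1.30, -0.89, -1.08 and -1.21 treated (2.74 ± 0.32 higher, limma adjusted p = 0.00105). Itpr2, an inositol trisphosphate receptor, rose by 2.36 ± 0.23, and the calcium binder Nucb1, whose promoter is printed above, by 1.36 ± 0.15. Phospholipid synthesis had 13 of 26 genes (50%) higher and 2 (7.69%) lower, 6 higher in both lines, and a median of 0.34. Chka, the first enzyme of phosphatidylcholine synthesis, rose from 1.17, 1.15, 0.77 and 1.04 to 3.63, 3.36, 3.06 and 3.20 (2.28 ± 0.12, limma adjusted p = 4.69e-05). Lpin3, a phosphatidate phosphatase, rose by 2.59, the cardiolipin synthase Crls1 by 1.5 and the acyltransferase Gpat3 by 1.16. Among 30 lysosome genes 9 (30%) rose and 1 (3.33%) fell. Genes called in both lines included Npc1, a cholesterol exporter (1.55), the calcium channel Mcoln1 (1.07) and, in the other direction, Tfeb, a transcription factor for lysosome genes (-0.93). Of 34 peroxisome genes 2 (5.88%) were higher and 9 (26.5%) lower with the line as a block. Only 1 (2.94%, against 5.09% of all tested genes) fell in both lines, namely Pxmp4, a membrane protein, by 1.11. The median of the list was -0.34 in ATF4WT and -0.01 in PERKWT.

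Genes of ribosome assembly formed a list with no lower member. Of 29 genes 22 (75.9%, against 18.5% of all) rose with the line as a block, 14 in both lines, with a median of 0.65. The sizes were moderate, with Rrp9 up by 1.19 ± 0.19, Heatr1 by 1.04 ± 0.11, Rrs1 by 1.00 ± 0.12 and Wdr43 by 0.94 ± 0.15, all of them nucleolar factors of ribosomal RNA processing. Heatr1 moved from 3.70, 3.67, 3.93 and 4.19 to 4.81, 4.75, 4.98 and 5.13, without overlap. Host transcripts of small nucleolar RNAs and other noncoding RNAs had 7 of 14 (50%) higher and 1 (7.14%) lower, with a median of 0.50. Snhg12 rose by 2.19 ± 0.15, Snhg1 by 1.47 ± 0.13, Snhg17 by 1.32 ± 0.22 and Snhg6 by 1.21 ± 0.12. The introns of such host genes carry small nucleolar RNAs. Myc, a regulator of ribosome genes, rose from 2.09, 1.87, 2.49 and 2.44 to 3.10, 2.83, 4.30 and 4.45 (1.45 ± 0.20, limma adjusted p = 0.00214). Myc belongs to the immediate-early list, in which 3 of 25 genes (12%) rose and 6 (24%) fell, against 18.5% and 13.4% of all. Fos fell by 2.06 ± 0.25, Junb by 1.56 ± 0.19 and Klf10 by 1.31 ± 0.13.

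**Figure D3:**
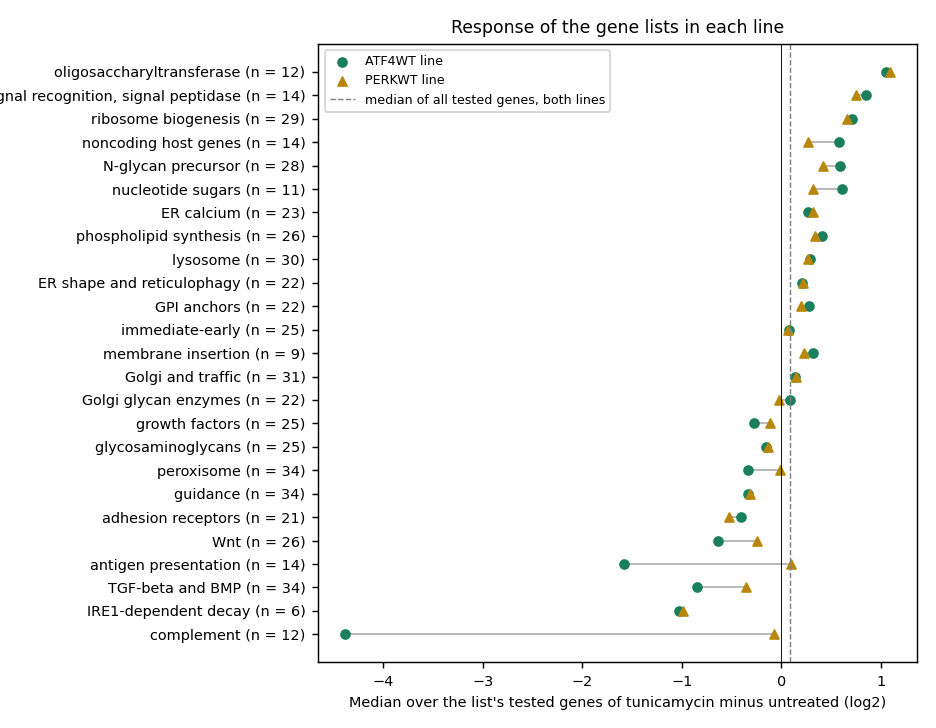
For each gene list the median log2 difference between tunicamycin and untreated arrays over its tested genes is shown in the ATF4WT line (circle) and the PERKWT line (triangle), with the number of tested genes in brackets and the median of all tested genes (0.08) as a dashed line. Oligosaccharyltransferase, signal recognition and ribosome assembly stand highest in both lines, and the complement and antigen presentation lists are far apart between lines.

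The 15 strongest fallers were chosen by the same rule. Their block differences ran from -5.33 to -3.30 on the log2 scale, with limma adjusted p from 4.22e-05 to 0.00246. All 15 were above background on every untreated array and 5 of them on every treated array, so the differences of the others are in part set against background. In 12 the groups did not overlap over all 8 arrays, against 3102 of the 12797 tested genes, which the choice by large differences again favours. Ccn5, a matricellular protein also called WISP2, stood at 3.40, 4.61, 2.52 and 2.37 untreated and at -2.30, -1.18, -1.45 and -1.40 treated. It fell by 4.81 ± 0.47 (limma adjusted p = 0.000446), and untreated ATF4WT arrays were the highest. Tgfbi, an extracellular matrix protein induced by TGF-β, was at 4.63, 4.61, 4.82 and 4.78, nearly level across the lines, and with tunicamycin at -0.08, 1.32, 1.72 and 1.87. The difference was -3.50 ± 0.33 (limma adjusted p = 0.000389). Pcp4l1, a small relative of a calmodulin regulator, went from 1.60, 2.05, 0.33 and 0.37 to -3.39, -2.83, -3.47 and -3.41, and Angpt1, a ligand of the receptor TIE2, from 1.11, 1.83, 0.40 and 0.47 to -3.14, -1.85, -3.26 and -3.11. Both stayed above background on all treated arrays. Gdf5, a growth factor of the BMP family, fell by 3.02 in ATF4WT and fell by 3.58 in PERKWT on its brightest probe. Its other probe had a smaller difference, -1.82 over both lines.

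For 3 fallers the lines started from such different levels that the groups overlap when the lines are pooled, while within each line they do not. Lrrc15, a membrane protein of activated fibroblasts, was at -2.97 and -2.25 in untreated ATF4WT and at 4.01 and 3.91 in untreated PERKWT cells, and at -6.53, -6.60, -0.05 and 0.51 treated. It fell by 3.72 in PERKWT and at least 3.85-fold in ATF4WT. Cxcl14, a chemokine, showed the same arrangement, with -2.30 and -2.81 against 1.56 and 1.47 untreated and -6.58, -6.49, -1.91 and -1.68 treated. Nrep, known as P311, was at -2.08, -0.81, 1.42 and 1.39 untreated and -6.53, -6.63, -2.17 and -2.08 treated. In all 3 genes only the treated PERKWT arrays remained above background. Serpina3f, a serine protease inhibitor, was the reverse, highest in untreated ATF4WT cells at 4.44 and 5.41 against -1.83 and -1.92, and it fell by 7.37 on the log2 scale in ATF4WT. In PERKWT no treated array was above background, so its fall there is a bound, at least 6.6-fold. The difference between lines that the fit called (limma adjusted p = 0.00912) rests on those background values. Fabp7, a fatty acid carrier, was above background on no treated array and fell at least 9.59-fold. Slc5a7, a choline transporter, Trib2, a pseudokinase, Rarb, a retinoic acid receptor, Adgrg1, an adhesion receptor, and Itga11, a collagen-binding integrin, fell, with differences of -3.65, -3.90, -3.34, -3.89 and -3.60. They were above background on 2, 3, 1, 2 and 2 treated arrays.

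**Figure D4:**
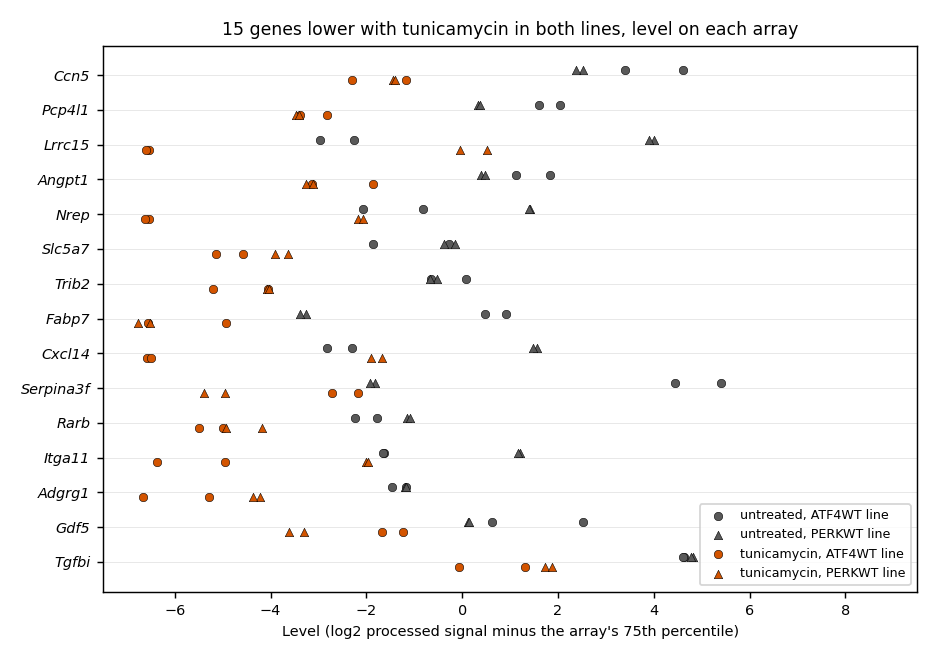
Levels of the 15 strongest fallers are plotted on every array on the log2 scale relative to the array's 75th percentile, with grey symbols for untreated and orange for tunicamycin arrays, circles for ATF4WT and triangles for PERKWT. Within each line the orange symbols lie to the left of the grey ones, while for Lrrc15, Nrep and Cxcl14 treated PERKWT arrays reach the level of untreated ATF4WT arrays.

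TGF-β and BMP signalling was the list with the largest number of fallers, though not with the largest share. Of 34 tested genes, none rose and 15 (44.1%, against 13.4% of all) fell with the line as a block. In both lines 8 (23.5%, against 5.09%) fell. The median was -0.74, with -0.84 in ATF4WT and -0.35 in PERKWT. The share was 50% in the short list of transcripts cleaved by IRE1, given below. Id1, a BMP target and inhibitor of differentiation factors, fell from 4.19, 4.30, 3.55 and 3.90 to 0.72, 1.30, 2.14 and 2.17 (-2.40 ± 0.34, limma adjusted p = 0.00217). The difference was -3.24 in ATF4WT and -1.57 in PERKWT, and the lines' responses differed past the threshold. They did so for 8 genes of the list (23.5%, against 4.95% of all tested genes). Its relative Id2 fell by 2.47 ± 0.46. Tgfb3, a ligand, fell by 1.58 and 1.82 in the lines. The list contains ligands, receptors, intracellular SMADs and targets, and those named here are 1 ligand and 2 targets.

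In the Wnt list 1 of 26 genes (3.85%) rose and 10 (38.5%) fell, against 18.5% and 13.4% of all tested genes. In both lines 5 (19.2%, against 5.09% of all) fell, and the median was -0.46. Dkk3, a secreted member of a family of Wnt modulators, went from 2.33, 3.19, 2.36 and 2.53 to -0.89, -1.04, -0.46 and -0.44 (-3.31 ± 0.24, limma adjusted p = 0.000129). The transcription factors Tcf7l1 and Tcf7 fell by 1.33 and 0.98. Guidance molecules had 3 higher (8.82%) and 10 lower (29.4%) of 34. Opposite directions in the lines were called for 2, against 61 of all 12797 tested genes. The response of 6 (17.6%, against 4.95% of all) differed between lines. Nrp1, a receptor for semaphorins and VEGF, fell from -0.92, -0.42, -0.41 and -0.48 to -2.60, -2.61, -2.24 and -2.20 (-1.85 ± 0.13, limma adjusted p = 0.00012). The ligand Sema3f fell by 1.59 and the ephrin receptor Epha3 by 2.27. Robo2, a receptor for SLIT proteins, was above background on no treated array and fell at least 4.03-fold. Of 21 adhesion receptors 1 (4.76%) rose and 8 (38.1%) fell, 5 of them (23.8%, against 5.09% of all) in both lines. The response of 5 (23.8%, against 4.95% of all) differed between lines. The median was -0.41, or -0.27 without treated PERKWT replicate 3. Besides Itga11 the fallers include Sdc3, a heparan sulfate proteoglycan (-2.49 ± 0.24), and Itgb3 (-1.78 ± 0.27). Vcam1 fell by 3.69 in ATF4WT and 0.86 in PERKWT.

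Among growth factors, 4 of 25 (16%) rose, near the 18.5% of all tested genes, and 7 (28%) fell, against 13.4%. Gas6, a ligand of TAM receptors, fell by 2.42 and Fgf7, a growth factor for epithelium, by 1.68. Igf1 fell by 1.87 on its brightest probe, but of its 2 other probes only 1 pointed the same way. Mdk rose by 1.70 on its brightest probe, and its other probe pointed down.

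Transcripts that IRE1 is known to cleave in mouse fibroblasts were few on the list, 6 in all. Of these, 3 (50%, against 5.09% of all tested genes) fell in both lines and none rose. The median was -0.79. Scara3, a scavenger receptor, was at 1.37, 1.47, 1.41 and 1.29 untreated and at -2.97, -2.53, -1.22 and -1.23 treated. It fell by 4.17 in ATF4WT and 2.57 in PERKWT, and these responses differed. Col6a1, a collagen chain, fell by 2.37 ± 0.21 and Bloc1s1, the best-known such transcript, by 0.99 ± 0.12. Decay and lower transcription cannot be told apart from array levels.

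The response differed between lines for 633 genes (4.95% of those tested), 414 of them with the higher value in PERKWT. Among these, 129 were called in the same direction in both lines, and 61 genes were called in opposite directions. The count was 43, 74, 89 and 107 without PERKWT untreated replicates 3 and 4 and treated replicates 3 and 4, and 1683, 1266 and 998 without ATF4WT untreated replicate 1 and treated replicates 1 and 2. Saa3, an acute-phase serum amyloid, was at 8.79 and 8.81 in untreated ATF4WT cells and at -7.08 and -6.96, not well above background, in untreated PERKWT cells. With tunicamycin it stood at -2.35 and -1.41 and at -3.44 and -3.16, so the lines came closer from opposite sides. Casp4, an inflammatory caspase, moved alike, from 4.42 and 4.24 to 0.84 and 1.40 in ATF4WT and from -3.15 and -2.68 to -1.20 and -0.81 in PERKWT. Insig1, a sterol-regulated ER protein, rose by 1.82 in ATF4WT and fell by 1.97 in PERKWT. The late cornified envelope genes Lce1g and Lce1i rose by 2.84 and 2.41 in ATF4WT and were lower in PERKWT, Lce1i by a difference of -2.11 and Lce1g, above background on no treated PERKWT array, at least 4.79-fold. Their difference between lines was no longer called without PERKWT untreated replicate 3, untreated replicate 4 or treated replicate 3 (limma adjusted p of 0.0877, 0.105 and 0.0501 for Lce1g and 0.0609, 0.068 and 0.0646 for Lce1i).

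Whole lists differed in the same way. In complement and acute-phase proteins, 8 of 12 tested genes (66.7%, against 4.95% of all) differed between lines. The median of the list was -4.38 in ATF4WT and -0.07 in PERKWT. C1s1, a serine protease of the classical pathway, was at 3.67 and 3.79 in untreated ATF4WT and at 0.57 and 0.38 in untreated PERKWT cells and fell by 4.45 and 1.98. Cd59a, an inhibitor of the membrane attack complex, rose by 0.75 and 0.97. Antigen presentation had a median of -1.58 in ATF4WT and 0.10 in PERKWT, and none of 14 genes changed in the same direction in both lines by both tests. Tapbp, which loads peptides onto class I molecules, fell by 1.87 ± 0.37 with the line as a block. In ATF4WT these falls lie on arrays whose slide and treatment cannot be told apart.

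The other genotypes give the same genes in cells with a changed PERK pathway, with 2 against 2 arrays each and a fit over all 24 arrays. Of the 432 genes at least 2-fold higher in both wild-type lines, 85 (19.7%) were higher in PERKKO cells with tunicamycin, against 2.33% of all tested genes. In eIF2a A/A cells 86 (19.9%) were higher, against 3.5% of all. ATF4KO cells raised 164 (38.0%), against 12.2% of all, and lowered 38 (8.80%), against 19.8%. In eIF2a A/A cells 11 of them (2.55%, against 1.85% of all) were lower and in PERKKO cells 2 (0.463%, against 0.578%), shares near those of all genes. AP raised 141 (32.6%) in Fv2E-PERK cells, against 3.08% of all, and lowered 0, against 1.47%. Between 368 and 388 of the 432 genes were well above background on both arrays of a group in each genotype. Of the 391 genes lower in both lines, 17 (4.35%) were lower in PERKKO cells, against 0.578% of all. In ATF4KO cells 100 (25.6%) were lower, against 19.8%, a share near that of all genes, and 46 (11.8%) were higher, against 12.2%. In eIF2a A/A cells 29 (7.42%) were lower, against 1.85%, and 18 (4.60%) higher, against 3.5%. With AP in Fv2E-PERK cells 53 (13.6%) were lower, against 1.47%, and 2 (0.512%) higher, against 3.08%. In PERKKO cells 3 (0.767%) were higher, against 2.33%. The differences from the wild-type response were not tested here, and slide and treatment cannot be told apart in ATF4KO cells either. Treated ATF4KO replicate 1 was the dimmest of the 24 arrays, with a 75th percentile of 111 intensity units and 45.5% of probes well above background. The part of this array in the ATF4KO counts was not tested. The PERKKO arrays lay on different slides, each with an untreated and a treated array, and the fit held no term for slide.

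Single genes were unlike each other in these cells. With AP in Fv2E-PERK cells 9 of the 15 strongest risers were called higher, against 3.08% of all tested genes. Measured on all 4 of these arrays, Cox6a2 rose by 5.33, Angptl6 by 3.76, Chchd10 by 2.40 and Cdsn by 2.33. Soat2 (6.17, limma adjusted p = 1.66e-07) and Extl1 (3.37) were above background on 1 of 2 untreated arrays. Avil, Cyp2c23 and B4galnt2, above background on neither, rose at least 5.92-fold, 4.19-fold and 2.89-fold. In ATF4KO cells 7 of the 15 were called higher and 1 lower, against 12.2% and 19.8% of all, but only 4 were above background on both arrays of a group. Among those called higher, B4galnt2 and Extl1 were above background on no ATF4KO array, and Hmx3 and Cyp2c23 on 1 treated array. Their calls there rest on background values. None of the 15 was called in PERKKO cells, against 2.33% higher and 0.578% lower of all. There 7 were above background on both arrays of a group. In eIF2a A/A cells none was called higher and 2 lower, against 3.5% and 1.85% of all, with 6 above background. Bhlha15 was above background on no untreated ATF4KO or PERKKO array and on both treated ones, at least 15.4-fold higher in ATF4KO (limma adjusted p = 0.000125) and at least 5.69-fold in PERKKO cells, where the fit did not call it (0.0533). Nrip2, Ppef1, Sh3tc2 and Ostn were not well above background on both arrays of any group in the 4 other genotypes. Cdsn was lower with tunicamycin in ATF4KO (-1.19) and eIF2a A/A cells (-1.24), opposite to wild type. Cyp2c23 was also lower in eIF2a A/A cells, at least 1.93-fold with no treated array above background (limma adjusted p = 0.0128). Of the 15 strongest fallers, 5 were lower in ATF4KO cells, against 19.8% of all tested genes, and none in PERKKO cells, against 0.578%, where 3 were above background on no array. With AP in Fv2E-PERK cells 3 were lower, against 1.47%, namely Ccn5 (-2.49), Nrep (-3.01) and Angpt1, which fell at least 3.44-fold with no treated array above background. Fabp7 was lower in eIF2a A/A cells, at least 5.02-fold. Angpt1 was higher in eIF2a A/A cells by 2.79 (limma adjusted p = 0.00247).

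**Figure D5:**
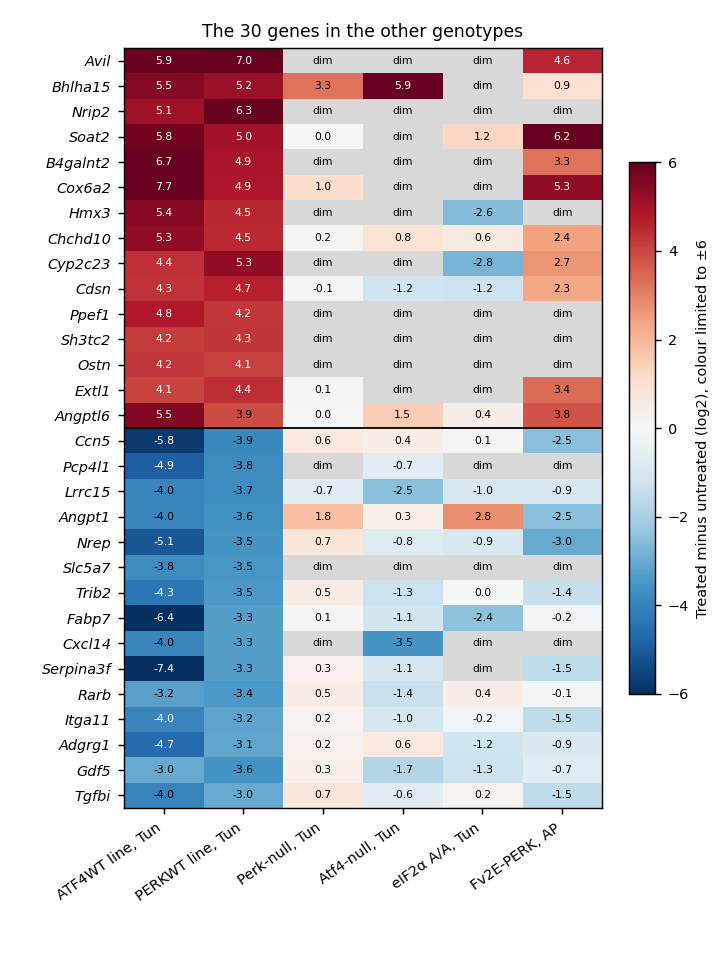
Rows are the 15 strongest risers (above the line) and the 15 strongest fallers, columns the wild-type lines and the other genotypes, and each cell gives the treated minus untreated log2 difference, with colour limited to ±6 and grey cells marked dim where a gene was not well above background on both arrays of either group. Of the risers, 9 were called higher with AP in Fv2E-PERK cells, while no gene of either set was called in the PERKKO column, in which Bhlha15 (3.26), Angpt1 (1.79) and Cox6a2 (1.00) lie farthest from 0. Values of genes above background in 1 group only are set against background.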

How the data were processed

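RNA of 24 mouse fibroblast samples was measured, 1 array each, and grouped by the labels. Per the file headers, the scans were quantified in Feature Extraction 10.7.1.1, Agilent's software. The deposited scanner files hold a processed signal, a linear intensity after the software's background correction, and uncorrected spot and background intensity, per the file headers. The authors' deposited log2 table differed from the scanner values by at most 0.001 for 99.3% of values once a constant per array and per probe was removed. Its baseline per probe is not known, and its wild-type column medians were -0.13, 0.12, -0.21 and -0.22 untreated and -0.02, 0.07, -0.12 and -0.24 treated.

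Control spots and outlier flags were left out, spots of a probe averaged, and log2 signals shifted by each array's 75th percentile. Probes were named by accession through RefSeq GRCm38.p6: of 55681 probes, 26574 had 1 symbol and 29107 none. A gene with several probes (4159 of those tested) was represented by the brightest. Of 164 named genes, 28 had other probes past the filter, and in 25 all of these pointed the same way, though sizes could differ. limma 3.58.1 (R 4.3.3, lmFit and eBayes, two-sided, Benjamini-Hochberg over all tested genes, called under 0.05) was fitted with line and treatment (5 residual degrees of freedom), and with a mean per line and treatment (4) for within-line results and their difference. It was tested on simulated data. Named genes are the 15 shared risers and 15 fallers largest in the weaker line, outside the best-known genes and unnamed loci, up to 4 per list, the 5 largest opposite genes, the label checks and cell markers. Members and lists were chosen with earlier results of these data known. Number of arrays limits precision. Normalization, background, filter, probe, block and left-out arrays were varied. Same-numbered arrays did not deviate together (r = -0.01 and 0.07 across genes in the lines). Protein sequences were not used here. Results for some genes are not reported here.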

Additional observations from a re-analysis of the deposited data

Results flagged for a closer look

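One array stood apart from the other 3 of its group in 18 of 328 groups of 4 values (2 groups for each of 164 named genes). The limit used marks about 1 in 20 groups when all 4 values come from 1 normal distribution. Each group here pools 2 arrays from each of 2 lines that differ in level and spread, so that rate does not apply. In 16 of the 18 the array that stood apart was an ATF4WT array and in 2 a PERKWT array. The median standard deviation per gene was 0.22 and 0.21 in ATF4WT against 0.08 and 0.06 in PERKWT. Treated ATF4WT replicate 2 stood apart for Avil (0.67), Pcp4l1 (-2.83), Angpt1 (-1.85), Trib2 (-5.20) and Fabp7 (-4.94). Treated ATF4WT replicate 1 did so for Hspa5 (9.23) and Cldn4 (-2.28). Untreated ATF4WT replicate 1 was apart for Adgrg1 (-1.46), Spcs2 (3.84), Nrp1 (-0.92), Itgb3 (0.49), Snhg17 (1.02), Xbp1 (4.59) and Pdgfrb (1.22), and untreated ATF4WT replicate 2 for Slc5a7 (-1.86) and Reep6 (1.49). Sec11a was marked in both groups through PERKWT replicate 3, at 4.54 untreated and 5.92 treated.

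The response differed between lines for 19 named genes other than cell markers by limma's test of the difference, given here as the PERKWT minus the ATF4WT response on the log2 scale. Among shared risers and fallers it was -1.77 for B4galnt2, -1.62 for Angptl6, 4.08 for Serpina3f, -1.08 for Retreg1 and 1.60 for Scara3. In the signalling and surface lists it was 1.67 for Id1, 2.36 for Id2, 1.61 for Fgf7, 1.12 for Sdc3 and 2.83 for Vcam1. In immune lists it was 2.18 for Tap2 and 2.47 for C1s1. Genes with opposite directions had 14.4 (Saa3), -6.11 (Lce1g), -4.51 (Lce1i), 5.11 (Casp4) and -3.79 (Insig1), and the label checks Atf3 and Chac1 had 1.91 and -1.84. In B4galnt2 (untreated ATF4WT), Saa3 (untreated PERKWT), Serpina3f and Lce1g (treated PERKWT) the arrays given in brackets were not above background, so these 4 values are set against background. The part of slide in these differences was not tested, since slide and treatment cannot be told apart in ATF4WT.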

How the results depend on the processing

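The counts changed most with the arrays and the model used in the fit. With the line as a block 4083 genes were called (2364 higher, 1719 lower). The count was 1833 (1140 and 693) without a block, 1489 (675 and 814) in ATF4WT alone, 6879 (3876 and 3003) in PERKWT alone and 6697 (3863 and 2834) with array weights per line. The shared counts of 961 and 652 became 546 and 354 without a filter on dim probes, which tests more genes, 563 higher genes with each line fitted alone, and 432 and 391 by construction with a 2-fold limit. The 633 genes that differed between lines became 373 without the filter and 1129 with all 24 arrays in the fit. Where no construction is named, the cause was not tested. Leaving out each array in turn gave 2892 to 3860 called genes (1608 to 2372 higher, 1253 to 1596 lower), 285 to 1234 shared higher, 161 to 922 shared lower and 43 to 1683 differing genes. A line left with 1 array in a group was assumed to vary like the others. With a replicate block in place of the line 2955 genes were called (1753 and 1202), and the named genes Emc3, Phyh, Vcam1, Psmb9, Psmb8, Tap2 and C1ra were no longer called, although the numbers did not pair the samples.

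Quantile normalization, normexp background correction, probes above background on all arrays, the authors' deposited values, the mean of a gene's probes and the slide as a random block (correlation 0.33) left each of these counts, where it was computed, within 1.5 times. The balance between directions was less stable. With quantile normalization 1987 genes were higher and 2043 lower with the line as a block, and the median of all tested genes went from 0.08 to -0.01. With array weights per line the shared genes numbered 801 higher and 807 lower. Of the 1613 shared genes, 1317 remained with quantile normalization, 1317 with normexp, 1612 with the deposited values and 855 with each line alone. Without the filter on dim probes 870 remained, and with array weights per line 1037. Over 139 named genes and their 2866 alternative values, 2735 kept direction and call, 131 kept only the direction, and 0 turned. Tap2, Phyh, Retreg3, Pigb, Emc3, Psmb8 and Psmb9 lost their call without 1 or more of the single arrays. Of 525 alternative list medians, 65 moved by more than the spread between arrays. A low signal over background limits the fold of dim genes, hence the bounds.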
